A study of Rattus norvegicus with 6 samples.

Results

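The calcineurin, Rcan and NFAT genes were 10 genes, found in the count table by gene name together with every unannotated row that lies over one of them on its strand. An unannotated row is a transcript that the authors listed with no gene name. The 10 genes had 16 of the 43035 rows of the table, 10 of them annotated and 6 not, and the rule used no measured value. The data were RNA-seq counts of cardiomyocytes isolated from Sprague-Dawley rats at postnatal day 1 and kept in primary culture in medium with fetal bovine serum. The 3 si-NC libraries came from cells transfected with a scrambled siRNA, and the 3 libraries labelled si-DYRK1A from cells transfected with an siRNA against DYRK1A, both collected after 48 h. The sample labels call the 3 libraries of a group biological replicates and do not say whether they were separate isolations.

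Calcineurin is a calcium-activated phosphatase built from a catalytic subunit (calcineurin A) and a calcium-binding regulatory subunit (calcineurin B), and it is switched on by calmodulin. It removes phosphates from NFATc proteins, which then enter the nucleus and act on genes of cardiac growth and calcium handling, while kinases such as DYRK1A and GSK3 put the phosphates back and send NFATc proteins out again. Rcan proteins bind calcineurin and inhibit it, and a short form of Rcan1 is itself a known target of NFATc proteins in the heart. These data measure RNA and not phosphorylation or nuclear entry.

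The libraries held 10325074 to 11921772 counts. The targeted gene was checked first. The annotated Dyrk1a row held 0 to 3 counts in each library, and an unannotated row over it had a mean of 77.7 ± 3.22 CPM (SD, n = 3) in si-NC and 82.4 ± 2.70 CPM (n = 3) in the libraries labelled si-DYRK1A, where CPM is the count of a row scaled to a common library size after TMM normalization. The log2 fold change was 0.084 (adjusted p = 0.374 by edgeR), so the Dyrk1a RNA does not check the labels, and each direction given here follows the labels alone. Over all 15513 rows tested, 15.2% passed the threshold of an adjusted p of 0.05, 8.03% with the si-DYRK1A label's group higher and 7.19% with it lower. Summed cardiomyocyte markers were at 11923 to 12112 CPM in si-NC and at 13174 to 13593 CPM in the other group, with 4 of the 6 tested markers called higher, 0 lower, and Tnni3, Myh6, Myh7 and Myl2 listed at 0 counts in their annotated rows, over which unannotated rows lie. Summed endothelial markers were at 171 to 190 CPM against 139 to 144 CPM, with 3 of 7 called lower (Tek, Tie1 and Cdh5). In fibroblast markers the sums were 21531 to 26245 against 20368 to 21107 CPM and 2 of 6 were called higher (Lum and Postn). The log2 fold change was above 0 in 5 of the 6. Col1a1 went the other way, at 14341 ± 1917 and 11113 ± 196 CPM (SD, n = 3 each), with groups that did not overlap, and was not called. Of the other lists, smooth muscle had 0 of 2 tested markers called (555.9 to 563 against 545 to 569 CPM), macrophage 1 of 8 (Lyz2, higher, with sums of 283 to 299.6 against 284 to 328 CPM) and lymphocyte no marker with enough counts for a test, with sums of at most 1.25 CPM. These marker values are those of annotated rows. Unannotated rows were also summed with their gene where they lie over no other annotated gene, which left Tnni3, Myh6 and Myh7 at 0 counts. With unannotated rows summed with their gene, smooth muscle had 1 of 3 markers called, Rgs5, higher (log2 fold change 0.56, adjusted p = 1.1e-05 by edgeR). Fibroblast then had 3 of 7 called higher, with Dcn added (0.44, adjusted p = 0.0408 by edgeR). In bulk cultures, fewer cells of a type and less RNA per cell cannot be told apart.

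None of the 10 genes had a row past the threshold. Enough counts for the test were held by 10 rows, 6 annotated and 4 unannotated, which covered 9 of the 10 genes. The count of called member rows was 0 against a background of 15.2%, and DESeq2 also called 0. At an unadjusted p under 0.05 there was 1 row, that of Rcan2, where the background was 27.4%. The 3 libraries of one group lay wholly on one side of the other 3 in 3 of the 10 rows, those of Rcan2, Ppp3r1 and the unannotated row of Nfatc1, each with si-NC on the upper side, and the background of such rows was 15.3% in that direction and 31.5% in either. The median log2 fold change of the 10 rows was 0.024, beside 0.0020 over all rows tested, and the median of its absolute size was 0.111 beside 0.176. Over the tested member rows, the 95% confidence intervals of the fold reached from 0.616 to 2.15, with the widest interval for Nfatc3, the tested member row with the fewest counts.

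**Figure D1:**
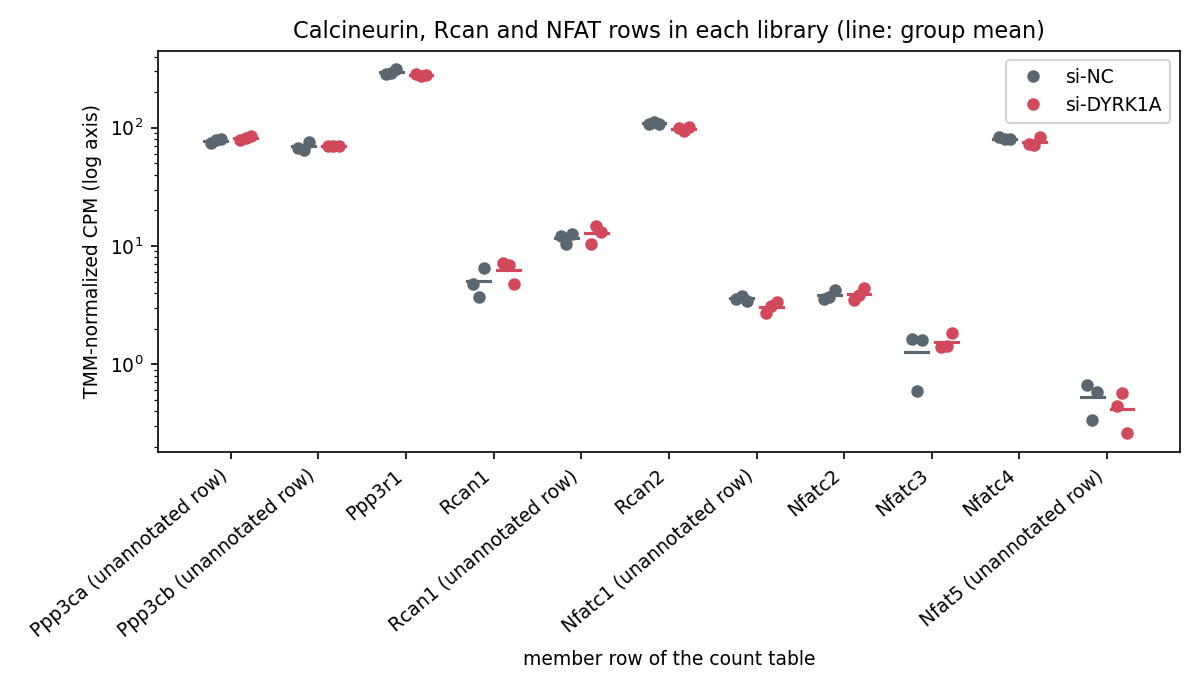
Normalized CPM (log axis) of the 10 tested member rows and the unannotated row of Nfat5 in each library, with 3 si-NC libraries in grey and 3 libraries labelled si-DYRK1A in red. Each point is a library and each short line a group mean. Ppp3r1 lies at 271 to 314 CPM and Nfat5 below 0.68 CPM, and the points of the groups overlap in all rows but those of Ppp3r1, Rcan2 and Nfatc1.

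For 5 of the 10 genes most counts lay in the unannotated row. The annotated rows of Ppp3cb and Nfat5 were at 0 counts in every library, that of Nfatc1 at 0 or 1 and that of Ppp3ca at 2 to 6. The unannotated rows over them held 4736 counts in all for Ppp3cb, 32 for Nfat5, 226 for Nfatc1 and 5413 for Ppp3ca. Rcan1 was split, with 31.6% of 1210 counts in the annotated row and 68.4% in the unannotated one. Nfatc3 also had an unannotated row, which held 8 of 103 counts. Ppp3r1, Rcan2, Nfatc2 and Nfatc4 had no unannotated row. Most reads of these 5 genes were thus listed under a row without a gene name, and the tool that made the counts is not given in the sources used here. Among 5326 protein-coding genes covered by 1 unannotated row, 78.3% had an annotated row with under 10 counts in every library, against 46.2% of 14871 genes with no unannotated row.

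**Figure D2:**
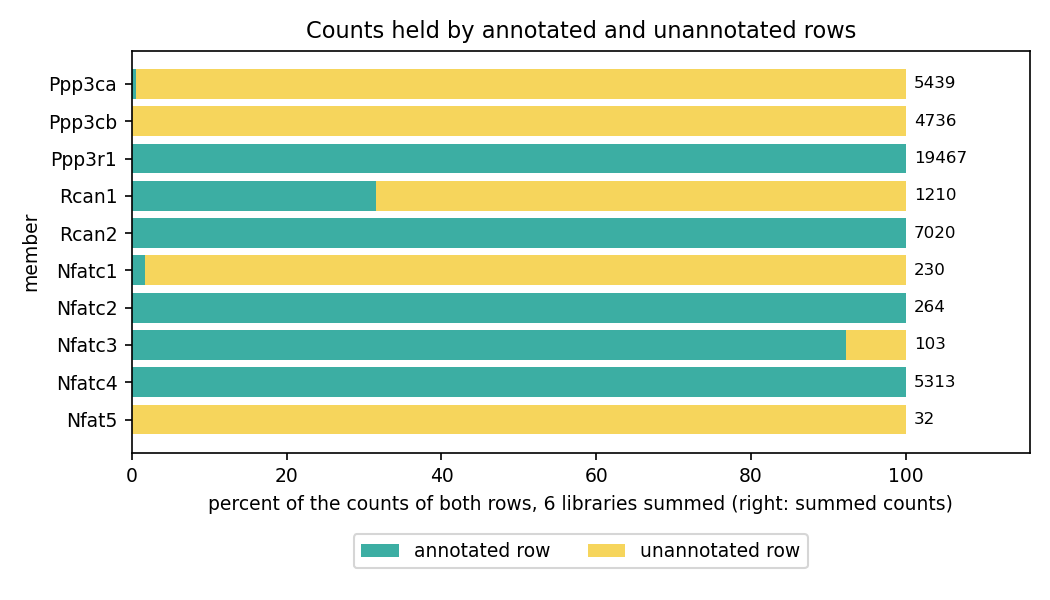
Percent of the counts of each gene that lay in its annotated row (green) and in the unannotated row over it (yellow), summed over the 6 libraries, with the summed counts at the right. Ppp3ca, Ppp3cb, Nfatc1 and Nfat5 lie almost wholly in unannotated rows, and Rcan1 is divided between both.

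Ppp3ca and Ppp3cb encode the catalytic subunits calcineurin A alpha and A beta, of which the beta form is known for its part in growth of the heart muscle. Ppp3ca (ENSRNOG00000009882) lies on chromosome 2 of Rnor_6.0, at 241909832 to 242184854 on the plus strand, and the unannotated row over it reaches from 241908994 to 242187078. This row was at 73.9, 78.2 and 80.5 CPM in si-NC replicates 1, 2 and 3 and at 78.9, 82.4 and 85.0 CPM in replicates 1, 2 and 3 of the libraries labelled si-DYRK1A. The lowest values were in si-NC and the highest in the other group, and the groups overlapped. The log2 fold change was 0.081 (SE 0.058, 95% confidence interval -0.040 to 0.20, adjusted p = 0.399 by edgeR), so a change of more than 1.15-fold upward lay outside the interval.

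Ppp3cb (ENSRNOG00000054782) lies on chromosome 15, at 4209703 to 4236895 on the plus strand, and its unannotated row goes on to 4252072. That row also covers Mss51, a neighbouring gene listed at 0 counts, so reads of the 2 genes cannot be told apart. The row was at 67.8, 64.9 and 75.5 CPM in si-NC and at 70.5, 69.9 and 70.4 CPM in the libraries labelled si-DYRK1A. All 3 values of the second group fell inside the spread of the first. The log2 fold change was 0.018 (SE 0.064, interval -0.12 to 0.15, adjusted p = 0.900 by edgeR), and its sign depended on the library left out.

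The other catalytic gene, Ppp3cc, is no member and had no unannotated row. It fell from 47.1 ± 2.15 to 40.1 ± 2.72 CPM (SD, n = 3 each; log2 fold change -0.23, adjusted p = 0.0401 by edgeR). It was not called without replicate 1 or 2 of si-NC (adjusted p = 0.147 and 0.0768), nor without replicate 1 or 2 of the other group (0.148 and 0.143), and DESeq2 gave 0.103. When each gene's counts were divided by the length of the row that held them, Ppp3ca took 30.4, 32.6 and 33.6% of the 3 catalytic genes in si-NC and 36.5, 37.2 and 35.96% in the libraries labelled si-DYRK1A. These shares did not overlap, with an exact two-sided permutation p of 0.1, which is the smallest that 3 libraries against 3 can give. The CPM of the Ppp3ca row overlapped between the groups, as given above, and its share also moves with the other catalytic genes. Only the share of Ppp3cb was planned for this test. Ppp3cb took 11.3 ± 0.924% and 12.2 ± 0.577% (exact permutation p = 0.3), and Ppp3cc 56.5 ± 2.30% and 51.2 ± 1.06% (exact permutation p = 0.1). All 3 shares depended on the length used, that of Ppp3cb above all. The unannotated row of Ppp3cb is listed with 13551 bases and its annotated row with 2142. With the annotated length for every gene its share was 35.4 ± 1.81% in si-NC and 36.5 ± 1.12% in the other group. Ppp3ca then took 36.6 ± 1.16% and 39.4 ± 0.512%. Ppp3cc, the largest share before, became the smallest, at 28.0 ± 1.96% and 24.1 ± 0.903%.

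Ppp3r1 encodes calcineurin B, the regulatory subunit that both catalytic forms need. The gene (ENSRNOG00000043210) lies on chromosome 14, at 100311173 to 100360879 on the plus strand. It was at 285, 289 and 314 CPM in si-NC and at 284, 271 and 277 CPM in the libraries labelled si-DYRK1A. Every library of the second group lay below every si-NC library, the nearest pair by about 1 CPM. On the log2 scale the difference was -0.094 (SE 0.046, interval -0.19 to 0.0021, adjusted p = 0.194 by edgeR), which did not pass. Ppp3r2, the testis form of the same subunit, had at most 2 counts in a library and was not tested.

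Rcan1 and Rcan2 encode inhibitors of calcineurin. Rcan1 (ENSRNOG00000001979) lies on chromosome 11 on the minus strand. Its annotated row reaches from 32539683 to 32550539, which is 10.9 kb, and the unannotated row from 32539683 to 32620332, which is 80.7 kb. In RefSeq, the gene spans 79.9 kb in the build GRCr8, and the start that its promoter table lists lies 10.1 kb from the end of the gene. The window printed here is therefore that of the nearer start, about where the annotated row begins, and not that of the far end of the unannotated row. Rcan1 is known to have a long form from the far start and a short form from the near one, the latter being the form that NFATc proteins act on. The 250 bases before the listed start are shown for Rcan1 at chr11:45118237-45118486 and, for contrast, for Rcan2 at chr9:24672190-24672439, both of the minus strand in GRCr8 from RefSeq, with motif matches in capitals.
Rcan1: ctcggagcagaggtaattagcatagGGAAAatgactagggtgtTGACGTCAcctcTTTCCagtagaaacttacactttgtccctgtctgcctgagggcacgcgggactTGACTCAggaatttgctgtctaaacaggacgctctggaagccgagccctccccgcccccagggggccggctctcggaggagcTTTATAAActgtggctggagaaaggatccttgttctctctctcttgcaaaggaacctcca
Rcan2: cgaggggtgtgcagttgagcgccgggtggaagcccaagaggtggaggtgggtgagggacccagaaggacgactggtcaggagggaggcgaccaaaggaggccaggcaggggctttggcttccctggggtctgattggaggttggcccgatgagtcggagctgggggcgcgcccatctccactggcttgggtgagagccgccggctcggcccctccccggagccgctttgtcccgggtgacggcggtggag
The capitals mark the NFAT core GGAAA and its reverse complement TTTCC, the cyclic AMP response element TGACGTCA, the AP-1 site TGACTCA or TGAGTCA, and the TATA box TATAAA or TTTATA, each searched on both strands. The Rcan1 window held 2 NFAT cores, 225 to 221 and 195 to 191 bases before the start, on opposite strands. It also held 1 cyclic AMP response element at 207 to 200, 1 AP-1 site at 142 to 136 and a TATA box at 58 to 53, which overlaps a match of the same motif on the other strand. The Rcan2 window held none of these letters. Of the 33469 windows in the table, cut to the same 250 bases, 56.9% held an NFAT core, 1.59% a cyclic AMP response element, 4.05% an AP-1 site and 12.9% a TATA box. Windows were listed for 6 of the 10 genes. Ppp3cb and Ppp3r1 held 1 NFAT core each, Ppp3ca and Nfatc2 held none of the motifs, and Nfatc1, Nfatc3, Nfatc4 and Nfat5 were not listed. A match of letters is a description of the window and not a binding site.

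The annotated row of Rcan1 was at 4.79, 3.72 and 6.52 CPM in si-NC and at 7.21, 6.87 and 4.76 CPM in the libraries labelled si-DYRK1A. Replicates 1 and 2 of the second group were the highest of all, and replicate 3 lay within si-NC. This gave a log2 fold change of 0.32 (SE 0.22, interval -0.14 to 0.78, adjusted p = 0.374 by edgeR). The unannotated row of Rcan1 was at 12.1, 10.4 and 12.6 CPM in si-NC and at 10.4, 14.8 and 13.2 CPM in the other group. Replicate 1 of the si-DYRK1A group was the lowest here and the highest in the annotated row, whereas si-NC replicate 2 was low and si-DYRK1A replicate 2 high in both. Its log2 fold change was 0.13 (SE 0.14, interval -0.16 to 0.42, adjusted p = 0.612 by edgeR). The annotated row held 28.4, 26.3 and 34.1% of the Rcan1 counts in si-NC and 41.0, 31.7 and 26.4% in the libraries labelled si-DYRK1A (exact two-sided permutation p = 0.6), and the groups overlapped. Both rows end at the same base of the gene, so reads near it may be listed under either. With both summed, Rcan1 was at 16.7 ± 2.52 and 19.1 ± 2.24 CPM (SD, n = 3 each), a log2 fold change of 0.19 (interval -0.064 to 0.44, adjusted p = 0.341 by edgeR).

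Rcan2 (ENSRNOG00000010350) lies on chromosome 9, at 19518558 to 19749145 on the minus strand, and encodes the second inhibitor of the family, known from heart, muscle and brain. It was at 107, 112 and 107 CPM in si-NC and at 99.8, 93.3 and 100.9 CPM in the libraries labelled si-DYRK1A. The second group lay wholly below the first, with replicate 2 the lowest. Its log2 fold change was -0.15 (SE 0.052, interval -0.26 to -0.043), which is 0.900 times the si-NC level, with an adjusted p of 0.0533 by edgeR, just outside the threshold. It passed in 5 of 10 other settings with all libraries, at adjusted p of 0.0445 with RLE normalization, 0.0208 with library size only, 0.0499 without a filter on low counts, 0.0495 with at least 10 counts in every library and 0.0447 with unannotated rows summed, and it passed in none of the 6 fits that left out a library (adjusted p 0.0576 to 0.264). DESeq2 gave an adjusted p of 0.130.

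Rcan3, the third gene of the family and no member, was at 14.3 ± 1.37 and 13.01 ± 0.597 CPM (log2 fold change -0.14, adjusted p = 0.49 by edgeR). Per length, Rcan2 made up 58.7, 60.5 and 59.7% of the 3 Rcan genes in si-NC and 58.3, 54.2 and 59.4% in the libraries labelled si-DYRK1A. Both groups overlapped, with replicate 2 of the second group the lowest (exact two-sided permutation p = 0.2). The difference of -2.32 percentage points was -0.772 without that library. Rcan1 made up 14.2 ± 2.41 and 17.4 ± 1.91%, and Rcan3 26.2 ± 2.15 and 25.3 ± 1.00%.

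Nfatc1 to Nfatc4 encode the calcium-regulated NFAT factors, and Nfat5 a related factor that answers to osmotic stress and does not need calcineurin. Nfatc4 (ENSRNOG00000020482, chromosome 15, 34493138 to 34504326, plus strand), the form best known in hypertrophy of the heart, was at 83.1, 79.8 and 79.6 CPM in si-NC. In the libraries labelled si-DYRK1A it was at 72.6, 71.6 and 83.5 CPM. Replicates 1 and 2 of this group were below all others and replicate 3 above all others. Nfatc4 had a log2 fold change of -0.091 (SE 0.064, interval -0.22 to 0.042, adjusted p = 0.388 by edgeR).

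Nfatc1 (ENSRNOG00000017146, chromosome 18, 77203525 to 77322690, minus strand), known for its part in heart valve formation, was measured through its unannotated row. That row was at 3.55, 3.81 and 3.43 CPM in si-NC and at 2.73, 3.11 and 3.38 CPM in the libraries labelled si-DYRK1A, with 31 to 45 counts in a library. Replicate 3 of the second group lay just below the lowest si-NC library, and the groups did not overlap. This gave a log2 fold change of -0.23 (SE 0.23, interval -0.70 to 0.25, adjusted p = 0.572 by edgeR), and the depth leaves room for a fold of 0.616 as well as for 1.19.

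Nfatc2 (ENSRNOG00000012175, chromosome 3, 165245238 to 165360292, minus strand) was at 3.55, 3.72 and 4.26 CPM in si-NC and at 3.52, 3.86 and 4.41 CPM in the other group. The 2 sets of values ran side by side, with a log2 fold change of 0.030 (SE 0.21, interval -0.41 to 0.48, adjusted p = 0.950 by edgeR). Nfatc3 (ENSRNOG00000054264, chromosome 19, 38039564 to 38114003, plus strand) was at 1.63, 0.592 and 1.59 CPM in si-NC, against 1.41, 1.41 and 1.82 CPM. Replicate 2 of si-NC, with 7 counts, stood below the other libraries. The log2 fold change of 0.29 (SE 0.39, interval -0.52 to 1.10, adjusted p = 0.689 by edgeR) was -0.057 without that library. The end of Nfatc3 overlaps Esrp2 on the other strand (log2 fold change -0.73, adjusted p = 0.0291 by edgeR), and with the use of strand not given, reads of the overlap cannot be told apart.

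Nfat5 (ENSRNOG00000011879, chromosome 19, 38446059 to 38533735, minus strand) had 7, 4 and 7 counts in si-NC and 5, 6 and 3 in the libraries labelled si-DYRK1A, all in its unannotated row. These are too few for the test. The unannotated row is listed with 13621 bases and the annotated one with 13565. Per length, Nfat5 made up 0.252 ± 0.078% of the 5 NFAT genes in si-NC and 0.218 ± 0.092% in the other group (exact two-sided permutation p = 0.6), while Nfatc4 made up 86.8 ± 0.769% and 86.3 ± 0.673% (exact permutation p = 0.4). Low counts of this kind were common where an unannotated row had nearly the length of the gene. Over the 1686 genes whose unannotated row was within 10% of their length, the median of both rows was 16 counts over 6 libraries, against 1861 counts over the 1243 genes whose lengths differed by over 2 times. The part of the counting in the low values of Nfat5 and Nfatc3 was not tested.

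**Figure D3:**
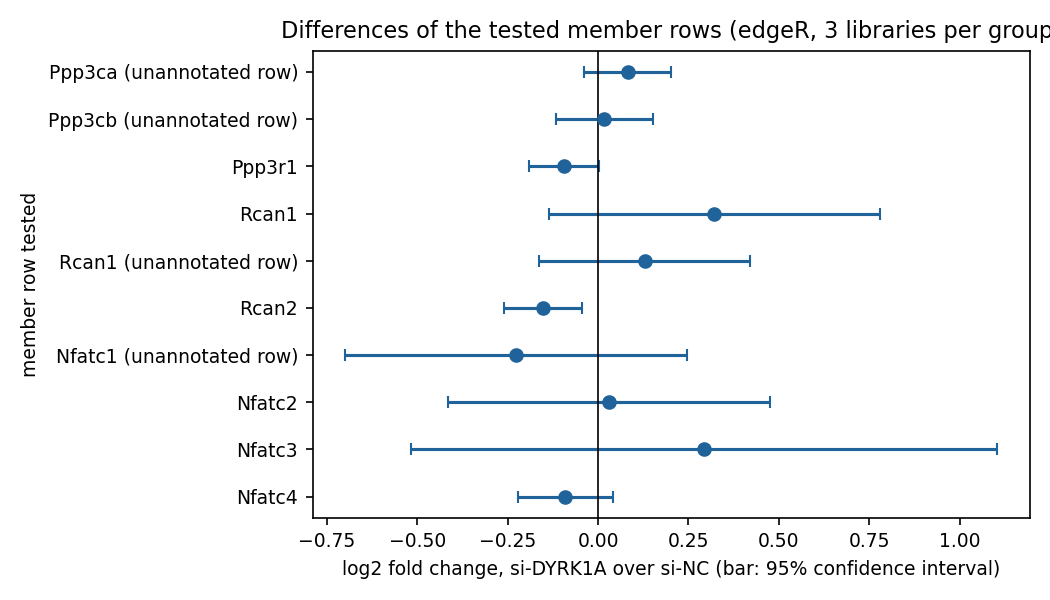
Log2 fold change of the 10 tested member rows, libraries labelled si-DYRK1A over si-NC (3 each), with 95% confidence intervals from edgeR. The interval of Rcan2, from -0.26 to -0.043, is the one that leaves out 0 before adjustment, and those of Nfatc1, Nfatc2, Nfatc3 and the annotated row of Rcan1 are wide.

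In the deposited FPKM, which set counts against length, the order over all 6 libraries was Ppp3r1 with a mean of 85.5 FPKM, Rcan2 with 28.3, Ppp3ca with 14.8, Nfatc4 with 12.9, Ppp3cb with 5.11, Rcan1 with 5.02, Nfatc2 with 1.04, Nfatc1 with 0.656, Nfatc3 with 0.228 and Nfat5 with 0.035, each by its row with the most counts. The values of Ppp3ca and Nfatc4 overlapped over the libraries, and so did those of Ppp3cb and Rcan1, while all other neighbours were separate. With all counts of a gene set over the annotated length, Ppp3ca stood at 34.2, Ppp3cb at 32.4 and Rcan1 at 8.24 FPKM, so the place of the catalytic genes below or above Rcan2 depends on the length used.

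The annotated genes whose log2 CPM followed the unannotated row of Rcan1 most closely over the 6 libraries were Speg (Pearson r = 0.998), Eftud2 (0.989) and Col5a1 (0.984). Those closest to Rcan2 were Rarb (0.991), Fgg (0.989) and Slc7a3 (0.989). The 6 points share their libraries and depth, and with 15513 rows to choose from the values are a description only.

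Genes that act on the same pathway were read from 3 lists of regulators of calcineurin, of kinases, partners and transport factors of NFAT, and of calcium entry. The lists were chosen with earlier results of these data known, so their counts are a description. Of 59 genes, 57 were matched and 30 had rows with enough counts. Of these, 4 rose (13.3%, beside 8.03% of all rows) and 7 fell (23.3%, beside 7.19%), with a median log2 fold change of -0.015. The count of 7 was 4 by DESeq2. It was 3 when si-DYRK1A replicate 1 was left out and 4 when si-DYRK1A replicate 2 or si-NC replicate 1 was. In the regulators, 2 of 12 rose and 3 fell. Lmcd1, a cofactor that works with calcineurin in cardiac growth, rose from 161 ± 2.09 to 202 ± 11.1 CPM (log2 fold change 0.33, adjusted p = 5.5e-05 by edgeR). Akap1, a mitochondrial anchor of protein kinase A, rose by 0.14 (adjusted p = 0.0359), from 172 ± 3.34 to 189.8 ± 2.02 CPM. Cib1, which holds calcineurin at the sarcolemma, fell from 80.2 ± 1.65 to 70.4 ± 3.11 CPM (log2 fold change -0.19, adjusted p = 0.0331 by edgeR). Chp2, a calcineurin B homologue, fell from 2.12 ± 0.606 to 0.926 ± 0.272 CPM (log2 fold change -1.18, adjusted p = 0.0350 by edgeR).

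The third gene of the regulators to fall was Ppp3cc. Of these 5 genes, only Lmcd1 passed with each library left out in turn. Leaving out si-NC replicate 1 raised the adjusted p of Akap1 to 0.119, of Chp2 to 0.138 and of Cib1 to 0.105. Leaving out si-DYRK1A replicate 1, 2 or 3 raised that of Akap1 to 0.101, 0.0908 and 0.110, that of Chp2 to 0.140, 0.0784 and 0.0564 and that of Cib1 to 0.0536, 0.180 and 0.0588, and without si-NC replicate 3 it was 0.0997 for Akap1 and 0.101 for Chp2. DESeq2 gave 0.0900 for Akap1 and 0.0868 for Cib1, and the limma fits called neither Akap1 nor Chp2. Regulators that did not pass were Ppia (cyclophilin A, the partner of cyclosporin, 1578 ± 102 and 1714 ± 27.7 CPM, log2 fold change 0.12, adjusted p = 0.0757 by edgeR), Myoz2 (calsarcin, which binds calcineurin at the Z-disc, 0.063), Chp1 (-0.058), Cabin1 (a calcineurin inhibitor, -0.037) and Fbxo32 (atrogin, a ubiquitin ligase that acts on calcineurin, 0.0081).

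Among kinases, partners and transport factors, 1 of 13 rose and 2 fell. Prkaca, the catalytic subunit of protein kinase A, rose from 262 ± 5.68 to 298 ± 4.27 CPM (log2 fold change 0.19, adjusted p = 0.00355 by edgeR). Mapk14, the stress kinase p38 alpha, fell from 236 ± 0.904 to 202 ± 3.86 CPM (log2 fold change -0.22, adjusted p = 0.00112 by edgeR). Homer3, a scaffold that binds NFAT, fell from 160.8 ± 6.34 to 141 ± 9.60 CPM (log2 fold change -0.19, adjusted p = 0.0203 by edgeR), and did not pass without si-NC replicate 2 (adjusted p = 0.0573) or si-DYRK1A replicate 1 (0.139). The limma fits did not call Homer3 (adjusted p = 0.127 and 0.129 with a filter, 0.220 without), and limma without a filter did not call Prkaca (0.0519). Not past the threshold were the NFAT kinases Gsk3b (log2 fold change -0.097, adjusted p = 0.241), Csnk1a1 (0.16, adjusted p = 0.399), Csnk1e (0.075) and Mapk8 (0.16), the importin Kpnb1 (0.090, adjusted p = 0.156), the NFATc4 partner Gata4 (0.30, adjusted p = 0.200) and the cofactor Crtc1 (-0.18, adjusted p = 0.181), all by edgeR. The annotated row of Csnk1a1 held 507 to 714 counts in a library. Summed with its unannotated row it held 2745 to 3368 and did not pass (0.087, adjusted p = 0.198 by edgeR).

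Of the genes of calcium entry, 1 of 5 rose and 2 fell. Stim2, a calcium sensor of the endoplasmic reticulum, fell from 132 ± 1.39 to 106 ± 0.681 CPM (log2 fold change -0.32, adjusted p = 7.5e-05 by edgeR). Orai2, a channel that Stim proteins open, fell from 52.7 ± 2.23 to 36.1 ± 2.75 CPM (log2 fold change -0.55, adjusted p = 2.9e-05 by edgeR). Trpc6, a cation channel of the plasma membrane, rose from 24.4 ± 1.20 to 36.6 ± 2.46 CPM (log2 fold change 0.59, adjusted p = 5.2e-05 by edgeR). In each of these 3 genes the groups did not overlap and the call held with each library left out. Stim1 (-0.041) did not pass, nor did the annotated row of Cacna1g, a T-type calcium channel, which held 7 to 20 counts in a library (0.17, adjusted p = 0.841 by edgeR). With unannotated rows summed with their gene, 44 pathway genes were tested, of which 7 rose and 8 fell (background 8.01% and 7.64%). The calls that this added were Cacna1c, the pore of the cardiac L-type calcium channel (log2 fold change 0.30, adjusted p = 0.00271 by edgeR), Cacna1g, with 234 to 311 counts once summed (0.31, adjusted p = 0.0255), Fhl2, which binds calcineurin (0.31, adjusted p = 0.0381), and Calm3, one of the calmodulin genes (-0.16, adjusted p = 0.00959).

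**Figure D4:**
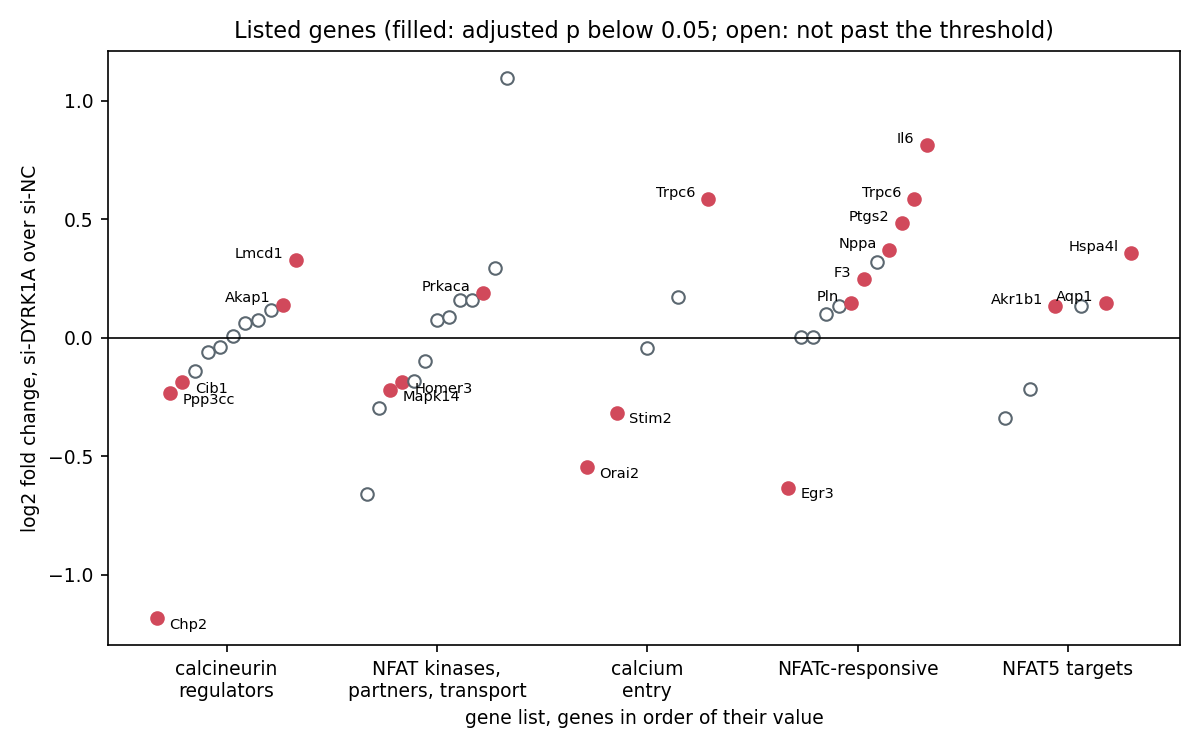
Log2 fold change of each tested gene of 5 lists, libraries labelled si-DYRK1A over si-NC (3 each), with called genes filled and named and all others open. Calls lie on both sides of 0 among the regulators, the kinases and the calcium entry genes, whereas 6 of 7 calls among NFATc-responsive genes and 3 of 3 among NFAT5 targets lie above it.

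Genes known from other work to respond to calcineurin or NFATc proteins were 21, of which 20 were matched and 12 tested, the annotated row of Rcan1 among them. Of these 12, 6 rose and 1 fell, beside 8.03% and 7.19% of all rows, with a median log2 fold change of 0.20. This list too was chosen with earlier results of these data known. Its counts are a description and not a test of the list. Nppa, the atrial natriuretic peptide, rose from 7557 ± 371 to 9782 ± 475 CPM (0.37, adjusted p = 3.7e-06 by edgeR). Il6, the cytokine interleukin 6, rose from 9.17 ± 0.629 to 16.1 ± 0.28 CPM (0.82, adjusted p = 6.3e-05 by edgeR). Ptgs2, cyclooxygenase, rose by 0.48 (adjusted p = 1.3e-05), F3, tissue factor, by 0.25 (adjusted p = 0.00303) and Trpc6 as given above. Pln, phospholamban, the inhibitor of the calcium pump, was at 397 ± 27.3 and 439.8 ± 16.6 CPM, and its call (0.15, adjusted p = 0.0471 by edgeR) came with groups that overlapped. Pln did not pass without si-NC replicate 1 (0.217) or 2 (0.149), or without si-DYRK1A replicate 1 (0.187), 2 (0.141) or 3 (0.0551), and not by DESeq2 (0.0736). Egr3, an early growth response factor, fell from 22.2 ± 2.23 to 14.3 ± 0.772 CPM (-0.63, adjusted p = 0.000281 by edgeR).

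The growth marker genes Nppb, the B-type natriuretic peptide (log2 fold change 0.10, adjusted p = 0.161), and Acta1, skeletal actin (0.0050, adjusted p = 0.968), did not pass, and neither did the chemokine gene Ccl2 (0.13, adjusted p = 0.0904), all by edgeR. With unannotated rows summed, 16 genes were tested, of which 7 rose, Edn1 (endothelin 1, 0.39, adjusted p = 0.0173) among them, and 1 fell (background 8.01% and 7.64%). Nppa is a gene of cardiomyocytes, and the summed cardiomyocyte markers stood higher in the same libraries, as given above. Most of that sum was Actc1, at 9976 ± 92.5 and 10880 ± 192 CPM (SD, n = 3 each). With unannotated rows summed, the markers called were Tnni1, Actn2, Actc1 and Pln, while Tnnt2 lay below 0 and was not called (-0.15, adjusted p = 0.544 by edgeR). In the annotated rows, Pln is itself one of the 4 called markers, and without it 3 of 5 tested markers were called. The part of the cell mixture in these calls was not tested.

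Nfat5 targets of the osmotic response were 14, of which 13 were matched and 6 tested. Of these, 3 rose and 0 fell, beside 8.03% and 7.19% of all rows, with a median log2 fold change of 0.13. As with the other lists, earlier results of these data were known when it was chosen, so the counts are a description. Hspa4l, a heat shock protein of osmotic stress, rose from 17.9 ± 1.08 to 22.9 ± 0.286 CPM (0.36, adjusted p = 0.0140 by edgeR). Aqp1, a water channel, rose from 336 ± 5.20 to 372 ± 5.69 CPM (0.15, adjusted p = 0.0192), and Akr1b1, aldose reductase, from 342.5 ± 11.8 to 376 ± 9.57 CPM (0.13, adjusted p = 0.0398). The transporter gene Slc6a12 (-0.22, adjusted p = 0.109) and S100a4 (-0.34, adjusted p = 0.683) did not pass. With unannotated rows summed, 8 were tested and 4 rose, the taurine transporter gene Slc6a6 (0.15, adjusted p = 0.0248 by edgeR) among them, and 0 fell (background 8.01% and 7.64%). The rest of that fit did not pass. Ranbp3l (-0.61, adjusted p = 0.0619), S100a4 (-0.87, adjusted p = 0.0784) and Slc6a12 (-0.22, adjusted p = 0.0963) lay below 0 and Ccl2 (0.13, adjusted p = 0.0981) above, all by edgeR. So the NFAT5 targets did not all move one way. The count of 3 rested on single libraries and on the test. It was 1 without si-NC replicate 1 and 1 without si-DYRK1A replicate 2, and 1 by DESeq2, which gave 0.0709 for Hspa4l and 0.0646 for Akr1b1. Aqp1 did not pass without si-NC replicate 1 (0.0906) or si-DYRK1A replicate 2 (0.0567) or 3 (0.1002), Hspa4l not without si-NC replicate 2 (0.0574) or si-DYRK1A replicate 1 (0.0506), and Akr1b1 not without si-NC replicate 1 (0.202) or 3 (0.0637) or si-DYRK1A replicate 2 (0.177) or 3 (0.130).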

How the data were processed

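RNA-seq of 6 libraries was analysed, grouped by the sample labels. Per the methods of the study, the authors used HISAT2 on paired-end reads with the genome Rnor_6.0, and they deposited raw counts per annotated gene or unannotated transcript. The submitters' processing notes name Bowtie 0.12.2 and a mouse build instead. Neither the counting tool nor its annotation release or strand setting is stated (not given in the sources used here). FPKM values deposited by the authors, made from counts by listed length and one scale per library, served for the order of levels and for limma.

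Counts were tested with edgeR 4.0.16 in R 4.3.3 (quasi-likelihood, robust fit, TMM, filterByExpr with a minimum count of 10, two-sided, Benjamini-Hochberg over all 15513 rows, threshold 0.05). Single values were compared with exact permutation tests, which cannot go below 0.1 here, and p-values measure the spread between these libraries. Shares were computed from counts per listed length, with unannotated rows that cover at least 50% of a gene on its strand. Alternatives were DESeq2 1.42.0, limma 3.58.1 on log2(FPKM + 1) or log2(FPKM + 0.1) for rows above 0.5 FPKM in 3 or more libraries, with a pseudocount of 1 also for all rows, RLE or library size only, other count filters, a replicate block, each library left out, and unannotated rows summed. An unannotated row was summed with a gene only if it covers at least 50% of that gene and no other annotated gene on its strand. The row over Ppp3cb and Mss51 was therefore not summed, and stayed a row of its own. Shares with all counts over the annotated length, and list counts without member genes, were chosen after seeing the data. The members and lists were chosen with earlier results of these data known. The text names all members, every called list gene and, in lists with fewer than 10 calls, up to 10 of highest mean CPM, and the 3 annotated genes of highest Pearson r to the Rcan1 row with most counts and to the member row with the smallest p. Gsk3a, Csnk1d, Mapk9, Fkbp1b and Sele were tested and not called, and are counted but not described.

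In 2 simulations of the comparison of si-DYRK1A with si-NC, with 15198 rows, edgeR recovered 70.3% of changes of 1 and 33.8% of changes of 0.5 on the log2 scale, and 13.9% of its calls were unchanged rows. The simulations changed far fewer rows than the 2360 called in the data, so these rates need not hold for the real comparison. Totals of 10325074 to 11921772 counts put 3 counts at up to 0.29 CPM. Promoter windows came from RefSeq (GRCr8).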

Additional observations from a re-analysis of the deposited data

How the results depend on the processing

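Depth limits Nfatc1, Nfatc2, Nfatc3 and Nfat5, which held 0 to 51 counts in a library, so that small differences in them were not detectable at this depth. The count of member rows past the threshold was 0 and became 1, Rcan2 in each case, with RLE normalization, with library size only, without a filter on low counts, with at least 10 counts in every library and with unannotated rows summed, and it was 0 with each library left out. Signs turned, far from the threshold, for Ppp3cb with library size only (-0.0083), without si-NC replicate 1 (-0.00015) and without si-NC replicate 2 (-0.031; range with a library left out -0.031 to 0.076), for Nfatc2 without si-NC replicate 1 (-0.023) and si-DYRK1A replicate 3 (-0.062, range to 0.11), and for Nfatc3 without si-NC replicate 2 (-0.057, range to 0.50). Over all rows, 2360 calls became 1199 with limma on log2(FPKM + 1), 1180 on log2(FPKM + 0.1) and 591 without its filter. Pathway genes called higher, 4, became 2 with limma without a filter and 7 with unannotated rows summed. Those called lower, 7, became 4 with DESeq2, 4 and 4 with the filtered limma fits and 3 without a filter, and 3 to 6 with a library left out, with 3 without si-DYRK1A replicate 1 and 4 without si-NC replicate 1 or si-DYRK1A replicate 2. NFAT5 targets called higher, 3, became 1 with DESeq2, library size only and both filtered limma fits, 0 without the limma filter and 1 to 2 with a library left out. NFAT5 targets called lower, 0, became 1 without a filter on low counts, and were 0 to 1 with a library left out, 1 without si-DYRK1A replicate 1. The difference in the Ppp3cb share became 0 with annotated rows only, where the gene has no counts. Except for this last, for the filters, which change the rows tested, and for left-out libraries, the cause was not tested. The other counts stayed within 1.5 times of their value, and the other share differences moved by less than the pooled SD of both groups, under every setting run, although the Rcan2 share difference went from -2.32 to -0.772 without si-DYRK1A replicate 2.

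Same-numbered libraries did not deviate together (correlations of 0.068, -0.022 and -0.0086), so the values showed no pairing by number. These correlations weight all tested rows alike, noisy low ones included, and cannot tell whether same-numbered cultures shared an isolation. With the replicate number as a block, 2269 rows and 0 member rows were called, with 3 pathway genes higher and 6 lower, 5 NFATc-responsive genes higher and 1 lower, and 2 NFAT5 targets higher. Not every library correlated best with its own number.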
